A study of Mus musculus with 12 samples.

Results

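Keratins and other intermediate filament genes were followed across conditionally immortalized mouse proximal tubule (PT) cells with and without TβRII, the type II TGF-β receptor encoded by Tgfbr2. The 10 genes were taken by name out of 25514 genes with counts, namely the keratins Krt7, Krt8, Krt18, Krt19, Krt20, Krt23 and Krt80, and Vim, Nes and Des. Of these, 8 had enough counts to be tested among 12971 genes, and Krt23 and Des did not. Without H2O2, the 6 tested keratins were all higher in TβRII-/- PT cells than in TβRII flox/flox PT cells, from 2.21-fold for Krt8 to 132-fold for Krt7, whereas Vim and Nes differed by less than 1.5-fold.

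RNA was sequenced from 12 libraries, with 3 in each of 4 groups, namely TβRII flox/flox PT cells (H2ts6;Tgfbr2fl/fl in the labels, floxed cells below) and TβRII-/- PT cells (H2ts6;Tgfbr2-/-), each untreated and after H2O2. All cells came from male mice with floxed Tgfbr2 alleles that also carried the Immorto-mouse transgene, a heat-sensitive T antigen, which allows growth at 33 °C; they were moved to 37 °C for 5 days in medium with 2.5% serum before use. TβRII-/- PT cells were made from the floxed cells by adenoviral Cre in culture, so each genotype was 1 cell population, and loss of the receptor cannot be told apart from other differences between these populations. The replicates are libraries of these populations, and p-values measure the spread between libraries, which may be technical. H2O2 was given for 24 h in serum-free medium whereas untreated cells stayed in growth medium, so the oxidant and serum withdrawal cannot be told apart. The sample labels give the dose as 200 mM and the methods text as 200 μM. By the methods text, cells also spent 24 h without serum before stimulation, and IFNγ was withdrawn at the move to 37 °C.

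Intermediate filaments are rope-like polymers that give a cell mechanical strength. Keratins, the filament proteins of epithelia, assemble only as pairs of an acidic type I and a basic type II chain: Krt18, Krt19, Krt20 and Krt23 are type I, and Krt7, Krt8 and Krt80 are type II. Krt8 and Krt18 are the usual pair of simple epithelia, Krt7 and Krt19 are found in ducts and the urinary tract, and Krt20 is known from gut and urothelium. Vimentin (Vim) is the filament of mesenchymal cells and of many epithelial cells in culture, nestin (Nes) is a filament of progenitor cells and podocytes, and desmin (Des) is that of muscle. In the kidney, injured tubules are known to express keratins and vimentin that mature PT cells have little of.

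Gene totals ran from 15870144 to 20857609 counts per library. The first principal component, with 81.5% of the variance, separated the genotypes, and replicates of each group differed by more than counting noise. Tgfbr2 itself had 7562 to 9248 normalized counts (counts scaled by edgeR's TMM factors to a library of 17351823) in untreated floxed cells and 6358 to 6782 in untreated TβRII-/- cells; counts over a whole transcript do not isolate the deleted part and so do not check the deletion. Of 16 PT markers, Lrp2 and Aqp1 were at 4243 normalized counts or more in every library, while 6, among them Hnf4a and Slc34a1, had at most 3 counts in every library. These cells thus kept a part of the marker list of the labelled cell type.

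Krt7, a type II keratin of ducts and transitional epithelium, differed most. Its gene lies at chr15:101412403-101427806 (GRCm38.p6). Untreated floxed cells had 50.5, 52.3 and 53.8 normalized counts, and untreated TβRII-/- cells had 7007, 6228 and 7419. Every TβRII-/- library was thus over the highest floxed library by a wide margin, and the log2 fold change was 7.04 ± 0.10 (SE, n = 3 per group; edgeR adjusted p = 3.04e-32). The transcript with the most counts for this gene was an annotated retained-intron form of 3563 bases; with the coding transcript in its place, an alternative chosen after seeing the data, the log2 fold change was 7.07. An opposite-strand transcript, Gm671, overlaps Krt7, as other such transcripts overlap Krt8, Krt19, Krt80, Vim and Des, and whether the counting used strand is not given in the sources used here.

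Krt8 and Krt18, the partners of the simple epithelial filament, were already expressed in floxed cells and were higher in TβRII-/- cells by different amounts. Their genes are 23.9 kb apart, Krt8 at chr15:101996711-102004342 and Krt18 at chr15:102028216-102032026. Krt8 had 1852, 2098 and 2043 normalized counts in untreated floxed cells and 4445, 4373 and 4435 in untreated TβRII-/- cells. Krt18 had 797, 866 and 983 in the former and 4586, 4789 and 4383 in the latter. The groups did not overlap for either gene. How many of all genes had groups without overlap is not given here. An edgeR adjusted p under 0.05 between untreated genotypes was reached by 8387 of all 12971 genes. The log2 fold change was 1.15 ± 0.06 for Krt8 (edgeR adjusted p = 1.73e-17) and 2.38 ± 0.07 for Krt18 (edgeR adjusted p = 1.43e-24), or 2.21-fold and 5.20-fold. Processed pseudogenes resemble both transcripts, Krt8-ps with 98.6% identity over 941 bases and Gm5200 with 90.2% over 1269 bases of Krt18, and were not counted here, so reads shared with them leave the absolute levels uncertain.

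Krt20, a type I keratin known from gut epithelium and the umbrella cells of the urothelium, had 243, 210.3 and 243 normalized counts in untreated floxed cells. It had 2638, 2576 and 2697 in untreated TβRII-/- cells, a log2 fold change of 3.50 ± 0.07 (edgeR adjusted p = 2.66e-28). Its gene lies at chr11:99428385-99438153, in the type I cluster with Krt19 (chr11:100140810-100145926). Krt19, the keratin that lacks most of the usual tail domain, was scarce in floxed cells, with 13.7, 21.1 and 10.8 normalized counts, and reached 167, 229 and 161 in TβRII-/- cells. Krt80, a type II keratin at chr15:101348315-101370162, had 48.4, 57.9 and 54.8 normalized counts in the former and 644, 656 and 693 in the latter. These keratins were higher by similar factors, with groups far apart: 3.61 ± 0.23 on the log2 scale for Krt19 (edgeR adjusted p = 4.01e-15) and 3.63 ± 0.14 for Krt80 (edgeR adjusted p = 4.58e-21), or 12.2-fold and 12.4-fold.

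The promoters of the keratins that were most abundant in TβRII-/- cells are shown with that of Vim, which differed by less than 1.5-fold, so that they can be read side by side. Each runs 5′ to 3′ on the gene's strand from 250 bases before the annotated start to 30 bases after it (RefSeq, GRCm38.p6). Capitals mark matches, on either strand, to a TATA box (TATAAA), a GC box (GGGCGG), an E2 box (CACCTG) or a TEAD site (GGAATG); the AP-1 letters TGANTCA were searched too. The windows are Krt7 chr15:101412153-101412432 (plus strand), Krt8 chr15:102004313-102004592 (minus), Krt18 chr15:102027966-102028245 (plus), Krt20 chr11:99438124-99438403 (minus) and Vim chr2:13574061-13574340 (plus).
Krt7: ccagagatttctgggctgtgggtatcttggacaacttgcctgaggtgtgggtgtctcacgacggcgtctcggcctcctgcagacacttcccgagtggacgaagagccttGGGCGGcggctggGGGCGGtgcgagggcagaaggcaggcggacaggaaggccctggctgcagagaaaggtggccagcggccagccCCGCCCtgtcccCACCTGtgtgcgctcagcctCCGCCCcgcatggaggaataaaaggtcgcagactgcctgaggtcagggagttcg
Krt8: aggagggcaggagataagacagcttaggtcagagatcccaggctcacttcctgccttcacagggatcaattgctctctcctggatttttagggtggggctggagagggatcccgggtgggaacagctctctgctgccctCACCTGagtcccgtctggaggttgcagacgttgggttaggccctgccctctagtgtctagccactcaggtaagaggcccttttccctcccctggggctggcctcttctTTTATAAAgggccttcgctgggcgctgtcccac
Krt18: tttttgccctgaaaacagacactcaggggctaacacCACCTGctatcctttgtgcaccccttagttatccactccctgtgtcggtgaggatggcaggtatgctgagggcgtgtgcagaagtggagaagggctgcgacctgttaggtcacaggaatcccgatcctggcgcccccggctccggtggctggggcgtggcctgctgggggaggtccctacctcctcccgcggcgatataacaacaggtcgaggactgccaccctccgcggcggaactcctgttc
Krt20: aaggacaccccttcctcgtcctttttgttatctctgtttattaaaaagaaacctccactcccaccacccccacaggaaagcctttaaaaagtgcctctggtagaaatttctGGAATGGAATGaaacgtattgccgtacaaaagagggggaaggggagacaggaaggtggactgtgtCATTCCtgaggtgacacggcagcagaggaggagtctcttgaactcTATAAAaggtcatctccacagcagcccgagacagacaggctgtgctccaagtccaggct
Vim: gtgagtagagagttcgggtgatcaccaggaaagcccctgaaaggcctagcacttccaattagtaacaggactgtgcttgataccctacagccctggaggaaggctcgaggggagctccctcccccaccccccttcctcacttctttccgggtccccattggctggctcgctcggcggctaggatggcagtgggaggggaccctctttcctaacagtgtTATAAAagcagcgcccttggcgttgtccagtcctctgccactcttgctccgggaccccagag

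Krt7, Krt8 and Krt18, and of the genes not printed Krt23, each held a match to the E2 box, the letters bound by E-box repressors such as Snail and Zeb factors, which in the printed genes lay at bases -44, -111 and -214 from the start; 19.1% of 32851 promoters of this length held one. Krt7 also held 4 GC boxes between bases -141 and -24, a motif in 34.7% of promoters; Nes and Des held 2 each. Krt20 held a TATA box at base -29 and 3 TEAD letters at bases -139, -134 and -74, the first 2 of which share 1 base. TATA boxes stood in 13.1% and TEAD letters in 13.9% of promoters. Krt8 had a TATA match across its annotated start, in overlapping copies on both strands, and Vim had one at base -32. The AP-1 letters, in 7.46% of promoters, were in none of the windows of the 8 genes with an entry. A match is a stretch of letters and no evidence that a factor binds.

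Vimentin and nestin had the highest levels per kb among the 10 genes in floxed cells and differed by less than the fold limit between genotypes. Vim (chr2:13574311-13582826) had 13806, 13998 and 14903 normalized counts in untreated floxed cells and 12223, 12533 and 11402 in untreated TβRII-/- cells. Its log2 difference of -0.24 ± 0.06 (edgeR adjusted p = 0.00118) was under the 1.5-fold limit set for a call, with a 95% interval of -0.36 to -0.12. Nes (chr3:87971093-87980451) had 9882, 9774 and 10645 normalized counts against 7354, 7425 and 7060, a log2 difference of -0.47 ± 0.06 (edgeR adjusted p = 6.19e-08), also under the limit. Both were lower in each TβRII-/- library than in any floxed library, a separation whose share over all genes is not given here. Among all 12971 genes, 8387 had an edgeR adjusted p under 0.05 between untreated genotypes, so passing that limit alone was common.

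The muscle filament desmin and the keratin Krt23 were at or near the floor. Des (chr1:75360292-75368579) had 0 to 10 counts per library, with groups that overlapped. Krt23 (chr11:99477973-99493120), which neighbours Krt20 at a distance of 39.8 kb, had 1 count in 1 library of H2O2-treated TβRII-/- cells and 0 in the other 11. A count of 0 allows up to 3 counts in a library, so low expression of Krt23 was not detectable at this depth.

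**Figure D1:**
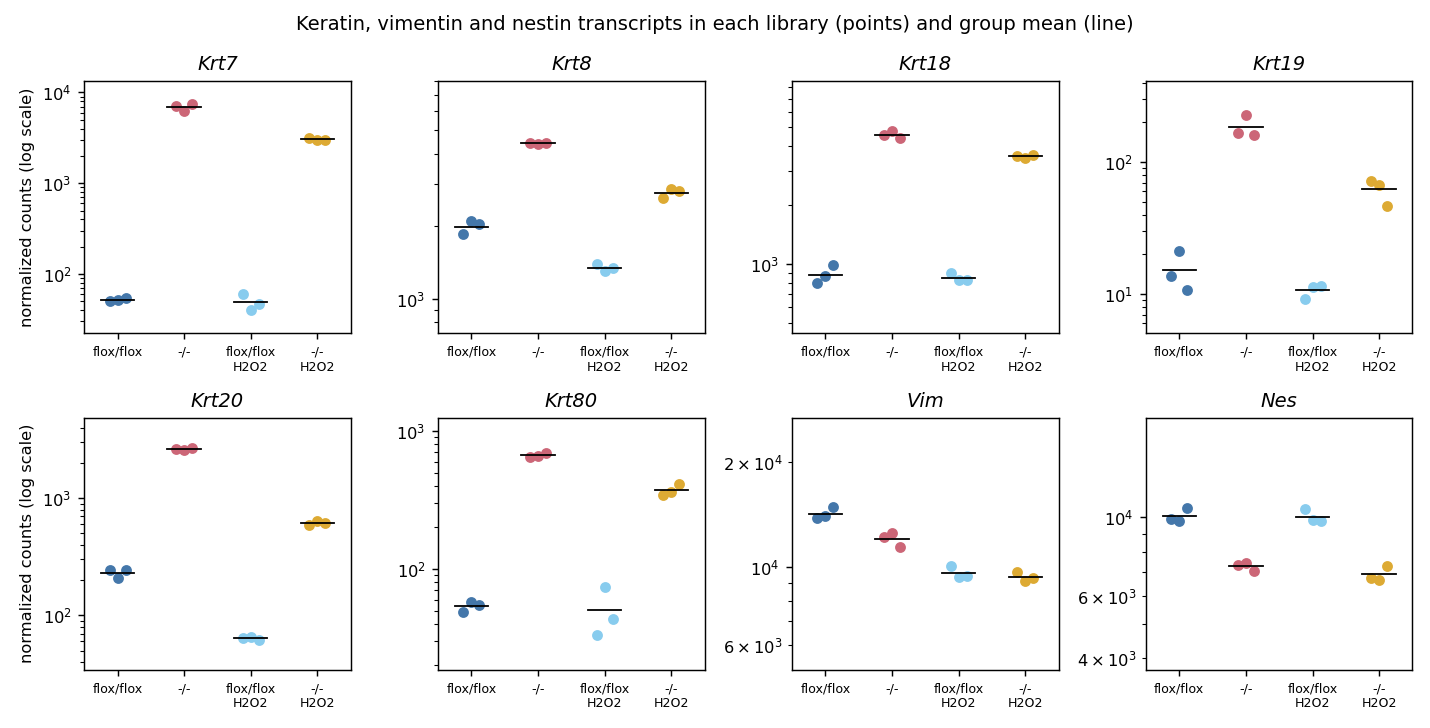
Normalized counts (y axis, log scale, 1 range per gene) of the 8 tested genes in each of the 12 libraries, by group; points are libraries and lines are group means (n = 3). The 6 keratins stand higher in both TβRII-/- groups than in either floxed group, while the group means of Vim and Nes stay within 1.5-fold between genotypes.

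In untreated cells 6 of the 8 tested genes were called higher in TβRII-/- cells (adjusted p under 0.05 and at least 1.5-fold), against 16.3% of all 12971 genes, and none was called lower, against 11.8%. After H2O2 the same 6 keratins were called higher, against 17.3% of all genes, and none lower, against 13.4%. These counts describe a list whose members were chosen with earlier results known. In H2O2-treated cells the log2 fold change was 5.94 ± 0.10 for Krt7, 1.03 ± 0.06 for Krt8, 2.07 ± 0.07 for Krt18, 2.54 ± 0.29 for Krt19, 3.27 ± 0.10 for Krt20 and 2.87 ± 0.15 for Krt80. Each value was smaller than without H2O2; the tests of these differences follow gene by gene. The Vim groups overlapped (log2 -0.04 ± 0.06, edgeR adjusted p = 0.597, 95% interval -0.16 to 0.08), and Nes differed by -0.54 ± 0.06 (edgeR adjusted p = 3.49e-09), under the fold limit.

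Every call with H2O2 in serum-free medium among these genes was a fall of a keratin. In TβRII-/- cells 5 of the 8 tested genes fell and none rose, against 3.76% of all genes called lower and 4.56% called higher. In floxed cells 1 of 8 fell, Krt20, and none rose, against 2.56% lower and 5.68% higher. These comparisons share their libraries with the comparisons of genotypes, so the values are set side by side and not read as separate evidence.

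Krt20 fell in both genotypes. It went from the values given above to 63.9, 65.1 and 61.9 normalized counts in floxed cells and to 588, 642 and 612 in TβRII-/- cells. The log2 fold changes were -1.87 ± 0.11 (edgeR adjusted p = 9.15e-15) and -2.10 ± 0.06 (edgeR adjusted p = 2.15e-22), and their difference, -0.24 ± 0.14, did not pass the test (edgeR adjusted p = 0.300, 95% interval -0.50 to 0.03). H2O2-treated TβRII-/- libraries still had more Krt20 than any untreated floxed library.

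Krt7 fell with H2O2 in TβRII-/- cells, to 3186, 3004 and 2980 normalized counts, a log2 fold change of -1.17 ± 0.06 (edgeR adjusted p = 1.65e-15). In floxed cells, where it had 60.9, 40.3 and 47.0 normalized counts after H2O2, the groups overlapped and the log2 difference was -0.08 ± 0.18 (edgeR adjusted p = 0.771). The difference between these effects was -1.10 ± 0.19 (edgeR adjusted p = 0.000277). For Krt7 the fall with H2O2 was therefore larger in TβRII-/- cells by the test of the difference itself, which was past the threshold for 10.2% of all genes and for 3 of the 8 tested here.

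The other 2 were Krt80 and Krt18. Krt80 fell in TβRII-/- cells to 341, 362 and 412 normalized counts (log2 -0.84 ± 0.10, edgeR adjusted p = 5.49e-08) and had 33.5, 74.4 and 43.5 in H2O2-treated floxed cells. The difference between its effects, -0.76 ± 0.23 (edgeR adjusted p = 0.0336), rested on the library with 74.4: without floxed replicate 2 after H2O2 it was -0.38 (edgeR adjusted p = 0.373), and it also lost the call without each of 4 other libraries. Krt18 had 894, 827 and 826 normalized counts after H2O2 in floxed cells and 3566, 3481 and 3624 in TβRII-/- cells. Its log2 change was -0.05 ± 0.07 in the former and -0.37 ± 0.06 in the latter, under the fold limit, and the difference of -0.31 ± 0.09 (edgeR adjusted p = 0.0294) was lost when counts were scaled by library totals alone (edgeR adjusted p = 0.0816) and without each of 5 libraries in turn.

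Krt8 moved with H2O2 by nearly the same amount in both genotypes, to 1400, 1302 and 1347 normalized counts in floxed cells and to 2631, 2847 and 2791 in TβRII-/- cells. The log2 change was -0.57 ± 0.06 in the former, just under the fold limit, and -0.68 ± 0.06 in the latter, just past it. The difference between these changes was -0.12 ± 0.08 (edgeR adjusted p = 0.440, 95% interval -0.28 to 0.05). The call in TβRII-/- cells alone thus does not show that Krt8 responded differently.

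Krt19 fell in TβRII-/- cells to 72.0, 67.6 and 46.7 normalized counts (log2 -1.57 ± 0.17, edgeR adjusted p = 9.74e-09). In floxed cells it had 9.13, 11.4 and 11.5 normalized counts after H2O2, too few to resolve a change (log2 -0.51 ± 0.40, 95% interval -1.28 to 0.27). The difference between the effects did not pass the test (log2 -1.07 ± 0.45, edgeR adjusted p = 0.133).

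Vimentin had 10089, 9383 and 9475 normalized counts after H2O2 in floxed cells and 9715, 9165 and 9295 in TβRII-/- cells, where the genotypes overlapped. Its log2 change with H2O2 was -0.56 ± 0.06 in floxed cells (edgeR adjusted p = 1.37e-08) and -0.36 ± 0.06 in TβRII-/- cells (edgeR adjusted p = 2.61e-05), both under the fold limit. The difference of 0.20 ± 0.09 did not pass the test (edgeR adjusted p = 0.152). Nes had log2 changes of -0.01 ± 0.06 and -0.08 ± 0.06, neither of which passed the test.

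**Figure D2:**
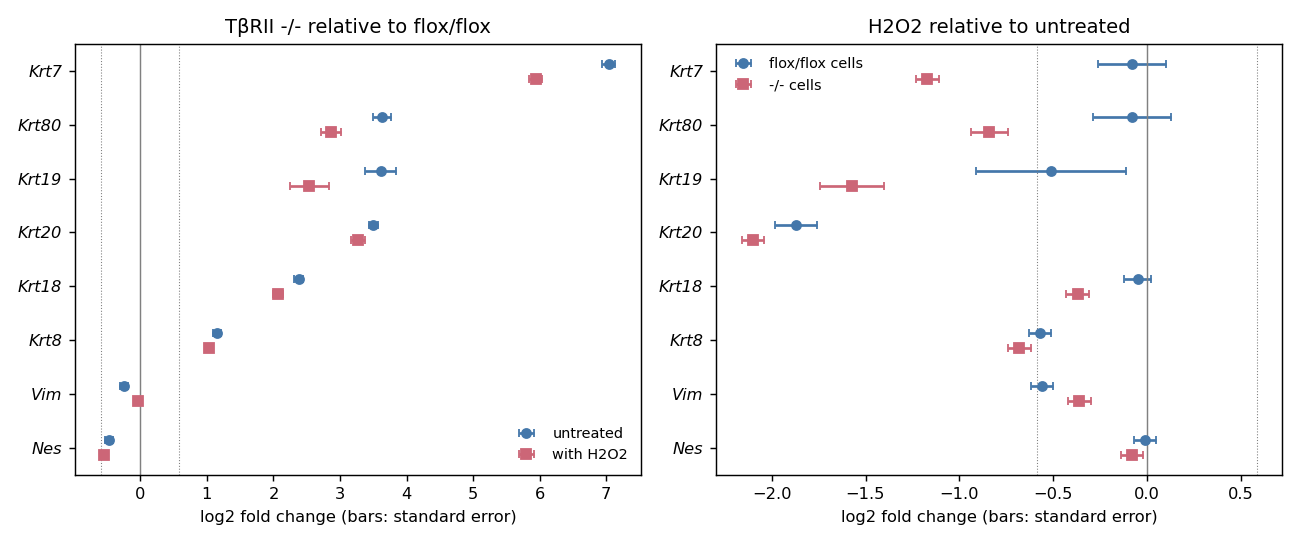
Log2 fold changes of the 8 tested genes (x axis) with standard errors, between genotypes (left, untreated and with H2O2) and with H2O2 (right, in each genotype); n = 3 libraries per group, and dotted lines mark 1.5-fold. The keratins lie right of the upper line on the left, from 1.03 to 7.04, and on the right only Krt20 lies left of the lower line in both genotypes.

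Dividing counts by transcript length allowed levels to be compared between genes. In untreated floxed cells the order of levels was Vim (6491 ± 267 normalized counts per kb, SD, n = 3), Nes (1649 ± 77.5), Krt8 (1020 ± 66.0), Krt18 (614 ± 65.3) and Krt20 (119.8 ± 9.75), with Krt80, Krt7 and Krt19 under 20. In untreated TβRII-/- cells it was Vim (5496 ± 267), Krt18 (3192 ± 141), Krt8 (2256 ± 19.8), Krt7 (1932 ± 169.7), Krt20 (1361 ± 31.0), Nes (1188 ± 31.6), Krt80 (217 ± 8.29) and Krt19 (118 ± 24.0). The level of Krt7 depends on the length of its retained-intron transcript, by which its counts were divided; without that division Krt7 (6885 ± 605 normalized counts) stood above Krt18 (4586 ± 203). Libraries of genes next to each other in these orders did not overlap, except for Des and Krt23 in floxed cells. After H2O2 the order was kept in floxed cells, with Krt80 and Krt7 overlapping, and in TβRII-/- cells Nes (1127 ± 57.3) stood above Krt7 (858 ± 31.7) and Krt20 (317 ± 13.9).

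Summed per kb, the 7 keratins made up 17.4, 18.6 and 18.1% of the level of all 10 genes in untreated floxed cells and 57.3, 56.5 and 58.9% in untreated TβRII-/- cells. With H2O2 they made up 18.2, 18.3 and 18.4% and 48.4, 49.7 and 49.2%. The share in TβRII-/- libraries was thus over that of every floxed library in both media. The mean difference was 39.5 percentage points without and 30.8 with H2O2 (two-sided exact permutation test, p = 0.10 for each, the smallest that 3 against 3 libraries can give). With H2O2 the share differed by 0.205 points in floxed cells (exact permutation p = 0.70) and dropped by 8.49 points in TβRII-/- cells (exact permutation p = 0.10). Vimentin made up 65.3 ± 0.377% of the sum in untreated floxed cells and 34.9 ± 1.15% in untreated TβRII-/- cells (SD, n = 3), although its own level differed by less than 1.5-fold, while the keratin sum went from 1796 ± 118 to 9075 ± 62.4 normalized counts per kb.

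**Figure D3:**
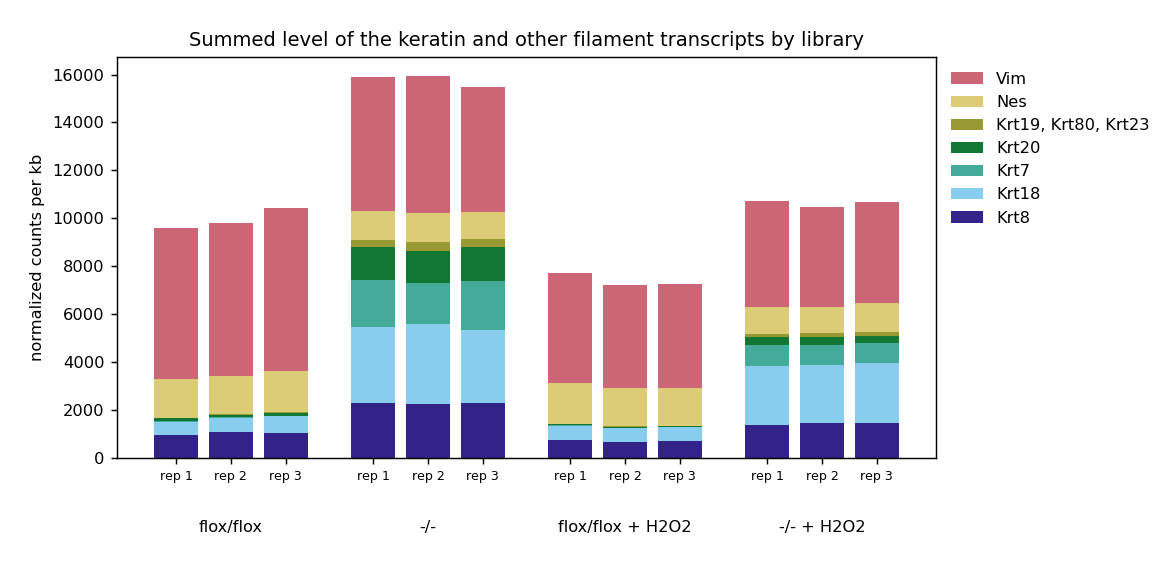
Summed level (y axis, normalized counts per kb) of the filament transcripts in each of the 12 libraries, stacked by gene. The keratin part is over 48% of every TβRII-/- bar and under 19% of every floxed bar, and the Vim part is of like height in both genotypes after H2O2.

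Krt8 and Krt18 proteins pair in equal numbers, and the ratio of their transcripts changed with both genotype and treatment. Krt18 per kb was 0.587, 0.562 and 0.655 times Krt8 in untreated floxed cells and 1.41, 1.49 and 1.35 times in untreated TβRII-/- cells. After H2O2 it was 0.870, 0.866 and 0.836 times and 1.85, 1.67 and 1.77 times. No groups overlapped in any of the 4 comparisons, each with p = 0.10, the smallest possible (two-sided exact permutation test). The mean log2 ratio differed by 1.24 between untreated genotypes and by 1.04 between treated ones, and was higher after H2O2 by 0.51 in floxed cells and 0.32 in TβRII-/- cells. Over the 7 keratins followed here, type I and type II transcripts summed to nearer values in untreated TβRII-/- cells (4670 ± 132 and 4405 ± 192 normalized counts per kb) than in untreated floxed cells (743 ± 65.7 and 1052 ± 68.0). That comparison of sums was not tested, and it leaves out other type II keratins of TβRII-/- cells such as Krt4 (192 ± 15).

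**Figure D4:**
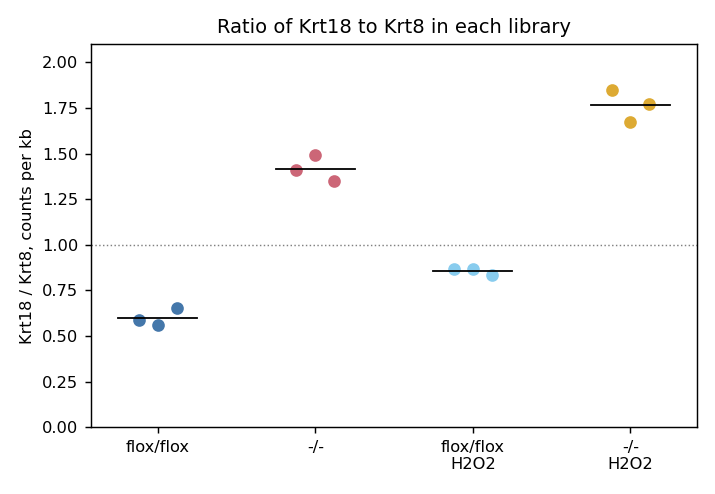
Ratio of Krt18 to Krt8 (y axis, both in normalized counts per kb) in each library; lines are group means (n = 3) and the dotted line marks a ratio of 1. All floxed libraries lie under 1 and all TβRII-/- libraries over 1, with the H2O2-treated group higher than the untreated one in each genotype.

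The other keratins gave the background for these members. Of 50 keratin genes in the counts, 18 had no count and 33, those included, had at most 3 counts in every library, so that most of the family was silent or nearly so. Besides the 6 members, 5 passed the count filter. Of these Krt5, Krt4 and Krt79 passed only through the TβRII-/- libraries in which they are high, so they had to differ and their values are given as a description. Krt5, a keratin of basal epithelial cells, had 0 counts in all 6 floxed libraries and 188 to 233 normalized counts in untreated TβRII-/- cells, at least 69.8-fold higher against a floor of 3 counts per library. Krt4, of stratified mucosal epithelia, had 0 to 4.21 normalized counts in untreated floxed cells and 378 to 441 in TβRII-/- cells, and Krt79 had 0 to 3.34 and 63.9 to 69. With H2O2 in TβRII-/- cells Krt5 had 87.7 to 90.4 and Krt4 had 109 to 138. Krt10 (35.8 to 56.8 and 45.0 to 48.4 normalized counts in untreated floxed and TβRII-/- cells) and Krt17 (14.7 to 20.4 and 12.4 to 17.8) were the other tested keratins, and their untreated groups overlapped; after H2O2 Krt17 was lower in TβRII-/- cells than in floxed cells (log2 -1.59, edgeR adjusted p = 0.00497).

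Keratin genes lie in a type II cluster on chromosome 15, which also holds Krt18, and a type I cluster on chromosome 11. In the type II cluster, 684 kb long in GRCm38.p6, 7 of 24 keratin genes were tested: the members Krt7, Krt8, Krt18 and Krt80, each higher in untreated TβRII-/- cells, and Krt5, Krt4 and Krt79, which passed the filter through those cells. In the type I cluster, 1037 kb long, 4 of 25 were tested and 2 were higher, Krt19 and Krt20. Of all 12971 genes, 16.3% were called higher in this comparison. The nearest tested genes outside the chromosome 15 cluster, 10 on each side, included 9 of 20 called higher and none lower, against 16.3% and 11.8% of all genes, with a median log2 difference of 0.53 and a range of -0.21 to 3.86. The highest of these was Smagp, a gene of a small transmembrane protein of epithelial cells, named here after its value was seen. Around the chromosome 11 cluster 3 of 20 were called higher and 1 lower, with a median of -0.21. For all 12971 genes the median was 0.01.

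**Figure D5:**
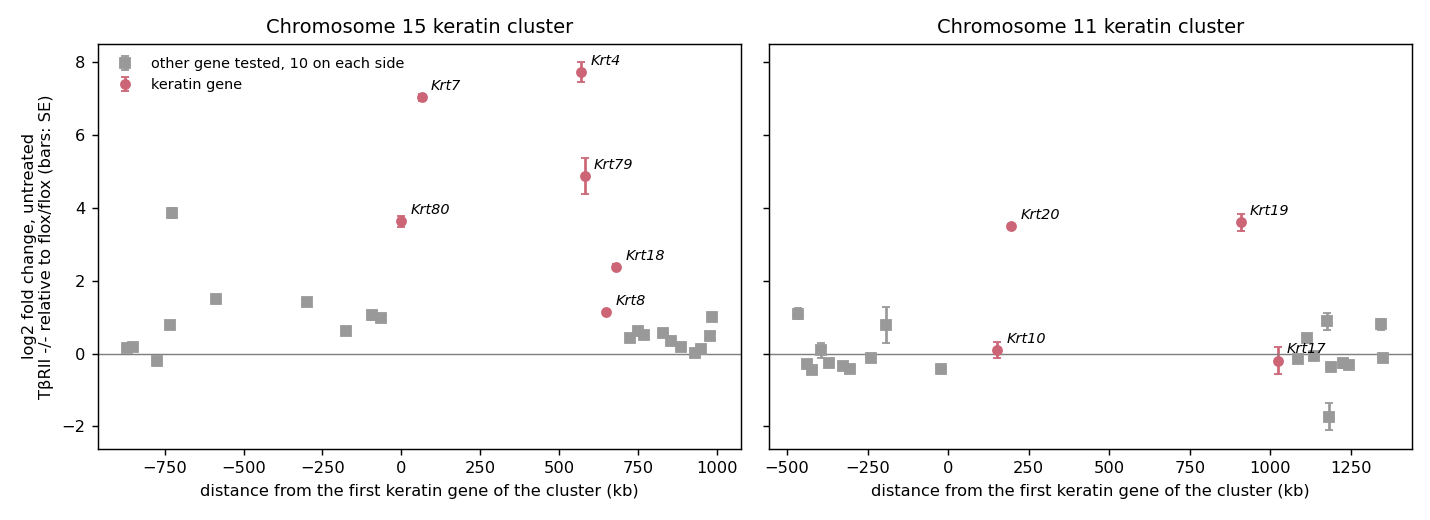
Log2 fold change between untreated genotypes (y axis, with standard errors) against the distance from the first keratin gene of each cluster in kb (x axis), for tested keratin genes and the 10 nearest other tested genes on each side. On chromosome 15 the members Krt7, Krt8, Krt18 and Krt80 lie between 1.15 and 7.04, and the neighbours have a median of 0.53. Krt4 and Krt79, also shown, passed the count filter through TβRII-/- cells, so they had to differ. Krt5, with 0 counts in floxed cells, has no finite fold and is left out. On chromosome 11 Krt19 and Krt20 lie above 3 and Krt10 and Krt17 near 0.

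Of 15 other intermediate filament genes listed, 9 were tested, and 2 were called higher and 1 lower in untreated TβRII-/- cells, against 16.3% and 11.8% of all genes, so these shares are near the background. Ina, the neuronal filament α-internexin, had 1.05 to 7.53 normalized counts in floxed cells and 36.4 to 51.3 in TβRII-/- cells (log2 3.51), through which it passed the count filter. Synm, which encodes synemin, a filament protein that joins vimentin or desmin, was higher (log2 0.93, edgeR adjusted p = 2.33e-08) and Iffo1 was lower (log2 -0.86, edgeR adjusted p = 1.19e-11). The nuclear lamins Lmna, Lmnb1 and Lmnb2 had log2 differences of -0.45, -0.37 and -0.35, and Iffo2 one of 0.15, all under the fold limit.

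Of 14 listed genes of proteins that link filaments to desmosomes and other structures, 12 were tested. In untreated TβRII-/- cells 4 of them were called higher and none lower, against 16.3% and 11.8% of all genes, with a median log2 difference of 0.34 over the 12. Dsp, which encodes desmoplakin, the protein that anchors keratin to desmosomes, went from 15.8 to 22.3 normalized counts in floxed cells to between 2965 and 3349 in TβRII-/- cells, a log2 fold change of 7.42 (edgeR adjusted p = 3.21e-32). The plakins Ppl (periplakin) and Evpl (envoplakin) and the plakophilin Pkp3 were higher by 3.57, 3.30 and 4.69 on the log2 scale; Pkp3, with 1.08 to 5.56 normalized counts in floxed cells, passed the count filter through TβRII-/- cells. Plakoglobin (Jup), a desmosomal protein shared with adherens junctions, had 3047 to 3225 normalized counts in floxed cells and 2795 to 3194 in TβRII-/- cells, and Macf1, a linker of microtubules and actin, had a log2 difference of -0.57. Between H2O2-treated genotypes 4 of the 12 were called higher and 2 lower, Macf1 (log2 -0.67) among the latter, against 17.3% and 13.4% of all genes. With H2O2 in TβRII-/- cells, 1 of the 12 fell, against 3.76% of all genes, Ppl (log2 -0.69, edgeR adjusted p = 3.97e-10), whereas Dsp had a log2 change of -0.25 (edgeR adjusted p = 7.65e-04), under the fold limit.

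Marker lists of other cell types were measured in the same libraries. In bulk RNA, fewer cells of a type and less RNA per cell cannot be told apart. The 6 urothelium markers summed to between 8.90 and 22.1 normalized counts in untreated floxed cells and between 213 and 258 in untreated TβRII-/- cells. Krt5, which passed the count filter through TβRII-/- cells, made up most of the latter sum. Of 3 tested, 2 were called higher and 1 lower, against 16.3% and 11.8% of all genes. Both markers called higher could pass the count filter only through TβRII-/- libraries, so they had to differ. Upk1a had 8.9 to 22.1 and 4.79 to 6.27 normalized counts in untreated floxed and TβRII-/- cells. Upk1b had 0 and 6.7 to 15.7, and Trp63 had 0 and 9.68 to 13.4. The defining uroplakins Upk2 and Upk3a had at most 3 counts in every library. The 9 collecting duct and distal tubule markers summed to between 14.7 and 24.5 and between 32.9 and 42.9, with 5 of them, among them Aqp2, Foxi1 and Calb1, at most 3 counts in every library. Scnn1g was the largest part of these sums (8.42 to 16.7 and 23.2 to 34.5). Only 1 marker of this list was tested, and it was called higher, against 16.3% of all genes. The 8 fibroblast markers summed to between 6078 and 7387 and between 2527 and 2847. Of 5 tested, 2 were higher and 3 lower, against 16.3% and 11.8% of all genes. Postn had 5530 to 6864 and 164 to 215, and Acta2 had 456 to 495 and 2340 to 2616. Dcn (0 to 3.34 and 2.09 to 7.66) passed the count filter only through H2O2-treated TβRII-/- libraries. Pdgfrb (11.8 to 21.1 and 0 to 6.27) passed it only through floxed libraries, so the calls of Dcn and Pdgfrb are given as a description. Of the 16 PT markers 9 were tested, and 6 of these were lower and none higher in untreated TβRII-/- cells, against 11.8% and 16.3% of all genes. Slc5a2 (6.45 to 18.9 and 0 normalized counts in untreated floxed and TβRII-/- cells) passed the count filter only through floxed libraries. Ggt1 (60.2 to 90.5 and 5.74 to 8.71) did so too, so these markers had to differ. The 5 endothelial markers summed to between 127 and 138 in untreated floxed cells and between 465 and 586 in untreated TβRII-/- cells, nearly all of it Kdr (124 to 133 and 459 to 584), while the defining Pecam1 and Emcn had at most 3 counts in every library. The 5 leukocyte markers summed to between 139 and 147 and between 231 and 253, nearly all of it Cd68 (127 to 142 and 225 to 247), with Adgre1 and Cd3e at most 3 counts in every library. The 6 smooth muscle markers summed to between 11324 and 12236 and between 9363 and 9855, mostly Smtn (10052 to 11068 and 6276 to 6687). Of the 5 tested, 3, Acta2 among them, were called higher and 1 lower, against 16.3% and 11.8% of all genes. Lmod1 (3.34 to 5.38 and 23.9 to 38.7) passed the count filter only through TβRII-/- libraries, so it had to differ. Podxl, a membrane protein of podocytes, had 31.2 to 41 normalized counts in untreated floxed cells and 499 to 535 in untreated TβRII-/- cells, and Wt1, a podocyte transcription factor, had 235 to 259 and 194 to 215. The part of these lists in the keratin differences was not tested.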

How the data were processed

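RNA-seq was measured in 12 libraries of PT cells, 3 per group, grouped by their sample labels. The authors trimmed reads with fastp, mapped them by STAR (GRCm38.p6, GENCODE M23), and deposited whole-number featureCounts counts per transcript without normalization. A read on several transcripts is counted on each, whereas the tests had been planned for counts per gene. Identifiers of 104820 of 106332 transcripts were matched to GENCODE M39; the rest held 1.22 to 1.28% of counts and were left out. For each gene the transcript with the highest total was used. Totals over genes were 15870144 to 20857609 per library.

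Counts were tested in R 4.3.3 with edgeR 4.0.16 (TMM, filterByExpr, glmQLFit and glmQLFTest, a mean per group over all 12 libraries), and p was adjusted by Benjamini-Hochberg over 12971 genes. Genes were called at adjusted p under 0.05 and at least 1.5-fold, and the difference between H2O2 effects at adjusted p under 0.05. Standard errors are the log2 fold change over the square root of F, and 95% intervals are 1.96 times that. Normalized counts are scaled to a mean effective library of 17351823. Shares and ratios were compared by exact permutation tests. Named genes were the 10 members, up to 10 other keratin and filament genes and up to 5 linkers with the largest differences between untreated genotypes; Krt10, Krt17 and Jup were named beyond this rule after their values were seen. The members and lists were chosen with earlier results of these data known. Copies were searched with BLAST 2.17.0 in GENCODE M39 transcripts. Promoters came from a RefSeq table for 8 of the 10 genes (not Krt19 and Krt80). The edgeR script was tested on simulated data. Some listed marker genes are not reported here. Alternatives were DESeq2 1.42.0, other scalings, filters and gene values, a replicate block, only the groups compared, an unadjusted p, and leaving out each library.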

Additional observations from a re-analysis of the deposited data

Results flagged for a closer look

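The effect of H2O2 differed between genotypes for 3 of the 8 tested filament genes by the test of the difference itself. The log2 effect in TβRII-/- cells minus that in floxed cells was -1.10 for Krt7 (edgeR adjusted p = 0.000277), -0.31 for Krt18 (edgeR adjusted p = 0.0294) and -0.76 for Krt80 (edgeR adjusted p = 0.0336). Krt7 had 39 to 60 counts in the floxed libraries, Krt80 had 33 to 72 and Krt18 had 721 to 914, so the first 2 rest on few counts on that side. This difference passed the test for 10.2% of all genes. The Krt7 call held under each alternative. Krt18 and Krt80 lost theirs when some single libraries were left out. Without H2O2-treated floxed replicate 2 the Krt80 difference was -0.38 (edgeR adjusted p = 0.373).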

How the results depend on the processing

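Of 675 values of single genes under alternatives, 660 kept their side of the threshold, 12 lost the call, 3 gained it and 0 reversed with a call. Small values that were not called could change sign. Vim between H2O2-treated genotypes, for example, had a log2 difference of 0.11 with library totals against -0.04 in the main fit. All 6 genotype calls in untreated and in H2O2-treated cells and all 5 calls with H2O2 in TβRII-/- cells kept their direction and side under each alternative that gave a value; with at least 10 counts required in every library, Krt19 could not be fitted. In floxed cells, leaving out 1 library gave 1 to 2 genes called with H2O2: Krt8 joined Krt20 (log2 -0.61) without untreated replicate 1, and Vim did (log2 -0.59) without treated replicate 1. Nes passed the fold limit between H2O2-treated genotypes (log2 -0.60) without floxed replicate 3. For the difference between H2O2 effects, leaving out 1 library gave 1 to 3 genes called here and 833 to 1680 called among all genes against 1321; it was 1 without untreated TβRII-/- replicate 2 and without H2O2-treated TβRII-/- replicate 1 (833 of all genes) or 2 (878). Krt7 kept that call throughout. Krt18 lost it with library totals (edgeR adjusted p = 0.0816), with counts summed over transcripts (edgeR adjusted p = 0.0533) and without untreated TβRII-/- replicate 1 or 2, treated floxed replicate 1, or treated TβRII-/- replicate 1 or 2 (edgeR adjusted p = 0.0521 to 0.0836). Krt80 lost it without untreated TβRII-/- replicate 2 or 3, treated floxed replicate 2, or treated TβRII-/- replicate 1 or 2 (edgeR adjusted p = 0.0517 to 0.373). The cause was not tested.

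With the replicate block the counts of members called stayed at 6, 6, 1, 5 and 3 for the 5 comparisons, and no call of a member changed. Same-numbered libraries share only a number, with correlations of their deviations of -0.09 to 0.06. Library totals alone shifted the median of all genes by 0.149 on the log2 scale between H2O2-treated genotypes and by under 0.1 elsewhere.

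Shares depended on how levels were computed. With counts summed over transcripts, the keratin share differed between genotypes by 33.1 (untreated) and 23.7 (H2O2) percentage points and the Vim share by -26.1 and -14.2. With counts not divided by length, the keratin share differed by 28.3 between H2O2-treated genotypes and by -0.972 and -11.1 with H2O2 in floxed and TβRII-/- cells, and the Vim share by -20.5 and -8.55 between untreated and H2O2-treated genotypes and by -7.93 and 4.03 with H2O2. Depth limits Krt7, Krt19, Krt23, Krt80 and Des in floxed cells.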
